A study of Mus musculus with 12 samples.

Results

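NF-kB is a family of dimeric transcription factors, and the genes described here encode its subunits and the IkB proteins that hold it back. They were taken as a list of 10 genes, Nfkb1, Nfkb2, Rel, Rela, Relb, Nfkbia, Nfkbib, Nfkbie, Nfkbiz and Bcl3. 9 of the 10 had a probe set that names a single gene, among 19938 genes measured in that way, and Nfkb1 was not analysed here. Each of the 9 had 1 such probe set.

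The cells were type 1 conventional dendritic cells (cDC1), which are specialised in showing captured antigen to CD8 T cells. They were sorted from naive C57BL/6 mice and measured on 12 Affymetrix arrays, in 4 groups of 3. The groups were Xcr1Cre+ CD40flfl skin-draining lymph node (SDLN), Xcr1++ CD40flfl SDLN, Xcr1Cre+ CD40flfl spleen (SPL) and Xcr1++ CD40flfl SPL. All mice carried a loxP-flanked Cd40 on both alleles, and Cre expressed from the Xcr1 gene, which is active in cDC1, was meant to delete it. Xcr1Cre+ and Xcr1++ arrays are called Cre and control from here on. The sort gate differed by tissue: SDLN cells were the migratory cDC1 with intermediate CD11c, and SPL cells had high CD11c, while both gates required high MHC class II and XCR1 without B220 or Sirpa. Ages are not given in the labels. The labels do not tell whether each replicate is its own animal, so every p-value here reflects the spread among these arrays and no more. The study asked how cDC1 with and without CD40 differ in the steady state.

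In the canonical pathway, receptors of the TNF, Toll-like and IL-1 families activate the IKK complex, which marks the classical IkB proteins for destruction and so frees dimers that contain RelA or c-Rel. In the non-canonical pathway, receptors such as CD40 and the lymphotoxin beta receptor stabilise the kinase NIK, p100 (the product of Nfkb2) is cut to p52, and dimers of p52 with RelB enter the nucleus. RelB is needed for the development of some dendritic cells, and several IkB genes are themselves switched on by NF-kB, which closes a feedback loop. The arrays measure RNA only, not the processing of p100 or the location of any subunit.

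Sequences upstream of the annotated starts were read for the NF-kB consensus motif of 10 bases, on both strands, because NF-kB is known to bind such sites near the IkB alpha gene. RefSeq (GRCm38.p6) gave a window of 250 bases before the start for 7 of the 9 measured genes, and 4 of these genes had a match (Nfkb2, Nfkbia, Nfkbie and Rel), while those of Bcl3, Nfkbib and Rela held none. A match was present for 4.5% of 27025 genes with a window and in 3.9% of 32851 windows. The 4 windows with a match are printed 5′ to 3′ on the strand of the gene, with the matching bases in capitals. Overlapping matches are joined into 1 stretch. Nfkb2 has 3 windows, each with a match, and the most upstream is shown.
Nfkb2, chr19:46304487-46304736, + strand: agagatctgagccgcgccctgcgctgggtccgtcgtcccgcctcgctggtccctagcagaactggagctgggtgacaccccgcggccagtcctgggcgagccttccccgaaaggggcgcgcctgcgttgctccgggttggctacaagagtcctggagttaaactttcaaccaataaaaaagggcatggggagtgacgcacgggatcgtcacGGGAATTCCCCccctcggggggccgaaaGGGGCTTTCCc
Nfkbia, chr12:55492648-55492897, - strand: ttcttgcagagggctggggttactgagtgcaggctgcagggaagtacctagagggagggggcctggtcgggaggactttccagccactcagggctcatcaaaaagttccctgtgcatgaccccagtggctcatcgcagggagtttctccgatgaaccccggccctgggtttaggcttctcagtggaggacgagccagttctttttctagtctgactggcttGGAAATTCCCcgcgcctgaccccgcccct
Nfkbie, chr17:45555450-45555699, + strand: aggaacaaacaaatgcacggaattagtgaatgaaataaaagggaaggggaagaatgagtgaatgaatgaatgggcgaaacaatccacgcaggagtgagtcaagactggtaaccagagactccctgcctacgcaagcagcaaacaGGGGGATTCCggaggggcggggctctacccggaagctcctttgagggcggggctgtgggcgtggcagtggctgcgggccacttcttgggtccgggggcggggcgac
Rel, chr11:23770970-23771219, - strand: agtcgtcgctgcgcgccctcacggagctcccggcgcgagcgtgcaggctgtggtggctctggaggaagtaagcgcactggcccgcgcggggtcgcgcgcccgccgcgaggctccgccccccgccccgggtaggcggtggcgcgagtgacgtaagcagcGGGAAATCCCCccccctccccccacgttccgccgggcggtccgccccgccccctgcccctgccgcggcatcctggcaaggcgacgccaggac

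The Nfkbia stretch begins 29 bases before the start, the Rel stretch 92 bases, the Nfkbie stretch 106 bases, and the Nfkb2 window holds one that begins 39 bases and one that begins 11 bases before it. A match is a description of the letters and not a measured site, and no match says only that the motif is not in this window.

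The labels were checked first. Cd40 had intensities of 1427, 1388 and 3358 in SDLN Cre arrays, against 2138, 2777 and 1542 in SDLN control arrays. In spleen, Cd40 had 365, 214 and 569 in Cre arrays, against 572, 525 and 309 in control arrays. The Cre to control ratio of Cd40 in same-numbered pairs was 0.668, 0.500 and 2.18 in SDLN and 0.638, 0.407 and 1.84 in SPL, so Cd40 was higher on the replicate 3 array labelled Cre in both tissues. Cd40 did not follow the labels on those arrays, and Cre and control below stand for the labels only. The same ratio of Xcr1 was 1.10, 0.933 and 0.899 in SDLN and 0.688, 0.971 and 0.991 in SPL. Its difference between labels had no adjusted p under 0.05 in limma in either tissue. The part of the gene that the Cd40 probes read is not known here, so RNA that keeps the probed exons would still be counted. Why Cd40 was higher on the replicate 3 arrays labelled Cre, and whether those labels are right, was not tested.

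The sorted cells were also checked against marker genes. Of 9 cDC1 markers, 7 were lower and 1 was higher in SDLN than in SPL arrays under each label (limma, adjusted p under 0.05). By the same test, 15.2% of all genes were lower and 13.1% higher among Cre arrays, and 13.2% and 12.9% among control arrays. Xcr1, the chemokine receptor used in the sort, lay between 203 and 286 on the 6 SDLN arrays and between 1945 and 3508 on the 6 SPL arrays, and Tlr3 in SDLN lay between 75.0 and 104, close to the array medians of 66.1 to 74.4. Irf8 (3385 to 4671 in SDLN, 3611 to 5870 in SPL) and Batf3 (2358 to 3020 in SDLN, 1423 to 1946 in SPL), transcription factors of cDC1, were bright in both. All 4 measured markers of migratory dendritic cells were higher in SDLN, among them the chemokine receptor gene Ccr7 at 7339 to 9556 in SDLN and 2329 to 3668 in SPL. The first principal component, with 79.5% of the variance, separated the tissues, and the second, with 11.2%, separated the 4 replicate 1 arrays from the other 8.

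Set against spleen, SDLN cDC1 had higher levels of the genes for both non-canonical subunits, of Rela, of the classical inhibitor genes Nfkbia and Nfkbib, and of the nuclear IkB genes Bcl3 and Nfkbiz. Relb changed by the most of the 9, at 5.85-fold among Cre arrays and 5.10-fold among control arrays, and Rel did not pass the test under either label. 7 of 9 genes passed the test upwards and 0 downwards under each label, where 13.1% of all genes passed upwards and 15.2% downwards among Cre arrays, and 12.9% and 13.2% among control arrays (28.3% and 26.1% in either direction). The median log2 difference was 1.03 over the 9 genes and 0.07 over all genes among Cre arrays, and 0.94 and 0.03 among control arrays. In bulk samples, fewer cells of a type and less RNA per cell cannot be told apart. The gate differs with the tissue, so tissue and gate cannot be told apart either.

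**Figure D1:**
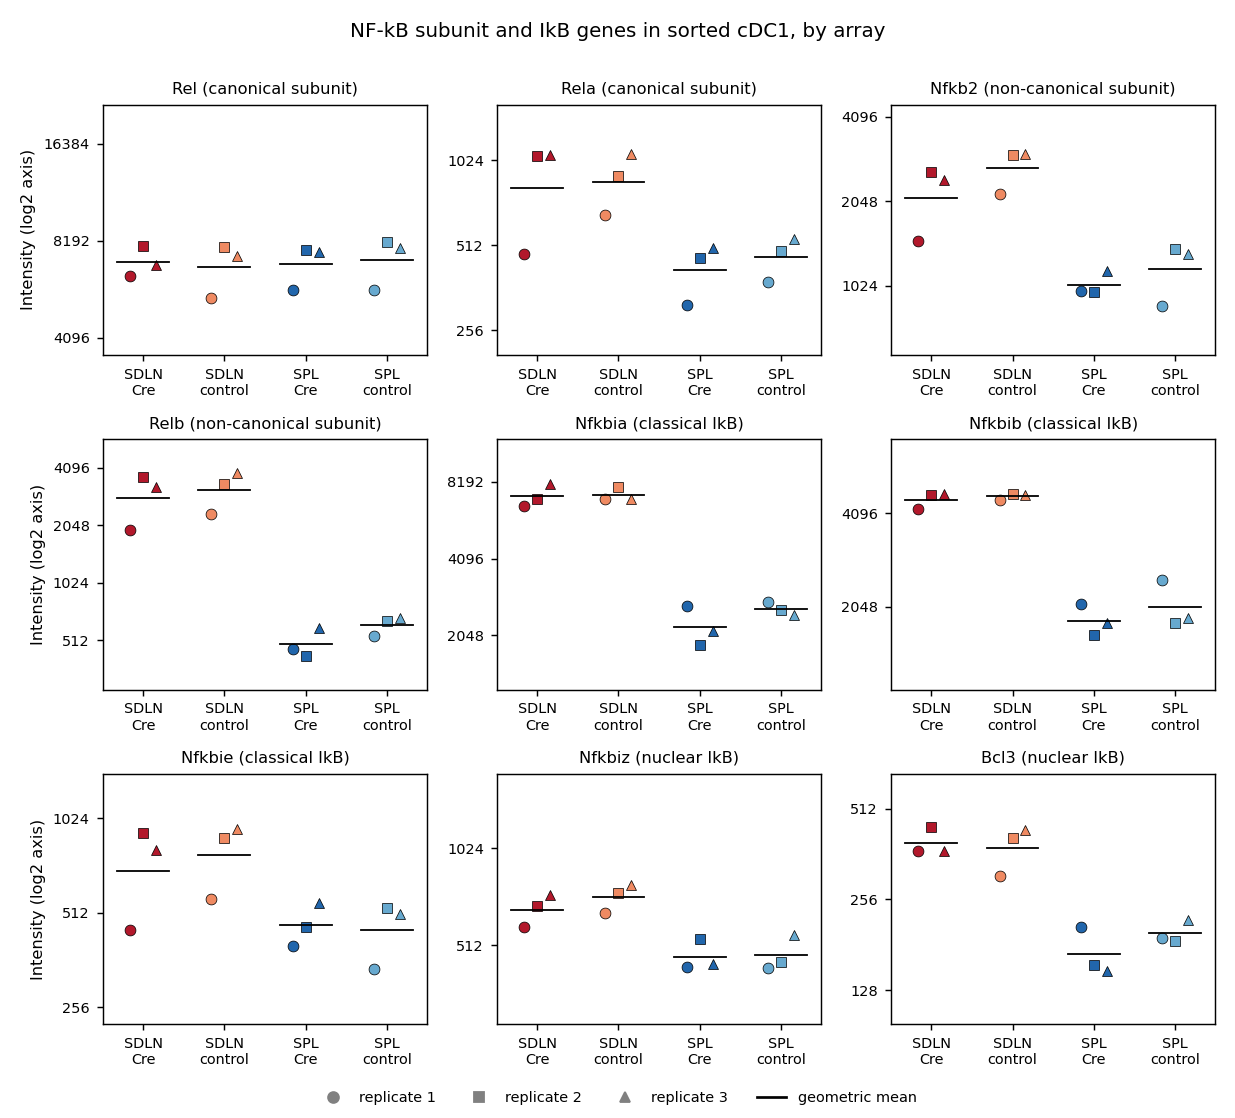
Intensity of each of the 9 genes on every array (vertical log2 axis, arbitrary units), with SDLN groups left of SPL groups and Cre left of control. Circles, squares and triangles are replicates 1, 2 and 3, and bars are geometric means. Relb, Nfkb2, Nfkbia, Nfkbib, Bcl3 and Nfkbiz show SDLN arrays above SPL arrays with no overlap, and Rel, Rela and Nfkbie do not.

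Among the non-canonical subunits, Relb, which encodes the partner of p52, had intensities of 1944, 3655 and 3257 in SDLN Cre arrays, against 461, 422 and 595 in SPL Cre arrays. Relb had 2362, 3380 and 3865 in SDLN control arrays, against 536, 647 and 672 in SPL control arrays. Every SDLN array lay above every SPL array. The log2 difference was 2.55 (SE 0.24, adjusted p = 2.42e-06) among Cre arrays and 2.35 (SE 0.24, adjusted p = 5.44e-06) among control arrays. The 95% interval of the fold was 4.07 to 8.42 among Cre arrays and 3.54 to 7.33 among control arrays.

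Nfkb2, which encodes p100 and its product p52, had 1474, 2611 and 2428 in SDLN Cre arrays, against 979, 971 and 1158 in SPL Cre arrays. Nfkb2 had 2178, 2987 and 3009 in SDLN control arrays, against 871, 1389 and 1332 in SPL control arrays. The tissues did not overlap, although the SDLN Cre replicate 1 array came near the brighter SPL arrays. Its log2 difference was 1.03 (SE 0.24, adjusted p = 0.00419) among Cre arrays and 1.20 (SE 0.24, adjusted p = 0.00138) among control arrays. The call among Cre arrays was lost without the replicate 2 arrays (adjusted p = 0.113) and without the replicate 3 arrays (0.0818).

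Among the canonical subunits, Rela, which encodes the activating subunit p65, had 478, 1057 and 1064 in SDLN Cre arrays, against 313, 463 and 500 in SPL Cre arrays. Rela had 655, 902 and 1073 in SDLN control arrays, against 379, 490 and 537 in SPL control arrays. The control groups did not overlap, while the SDLN Cre replicate 1 array lay below the highest SPL Cre array. SDLN minus SPL came to a log2 difference of 0.96 (SE 0.30, adjusted p = 0.0272) among Cre arrays and 0.89 (SE 0.30, adjusted p = 0.0426) among control arrays. The call among Cre arrays was lost when the SDLN Cre replicate 2, SDLN Cre replicate 3 or SPL Cre replicate 1 array was left out (adjusted p between 0.102 and 0.114). Among control arrays it was lost when SDLN control replicate 2 or 3, any of the 3 SPL control arrays, or SPL Cre replicate 2 or 3 was left out (adjusted p between 0.0504 and 0.161). Without all replicate 2 arrays the adjusted p was 0.230 among Cre arrays and 0.214 among control arrays, without all replicate 3 arrays it was 0.174 and 0.235, and with median centring it was 0.0594 and 0.0746. With the replicate number as a block the adjusted p was 4.85e-05 among Cre arrays and 1.01e-04 among control arrays.

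Rel, which encodes c-Rel, a subunit of lymphoid and myeloid cells, had 6362, 7902 and 6888 in SDLN Cre arrays, against 5745, 7682 and 7569 in SPL Cre arrays. Rel had 5423, 7823 and 7341 in SDLN control arrays, against 5772, 8108 and 7793 in SPL control arrays. The tissues overlapped fully under both labels. On the log2 scale SDLN differed from SPL by 0.02 (SE 0.17, adjusted p = 0.954) among Cre arrays, with an interval of the fold from 0.780 to 1.31, and -0.08 (SE 0.17, adjusted p = 0.845) among control arrays, with an interval from 0.731 to 1.23. These intervals lie below those of Relb, though the difference between the changes of the 2 genes was not tested.

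**Figure D2:**
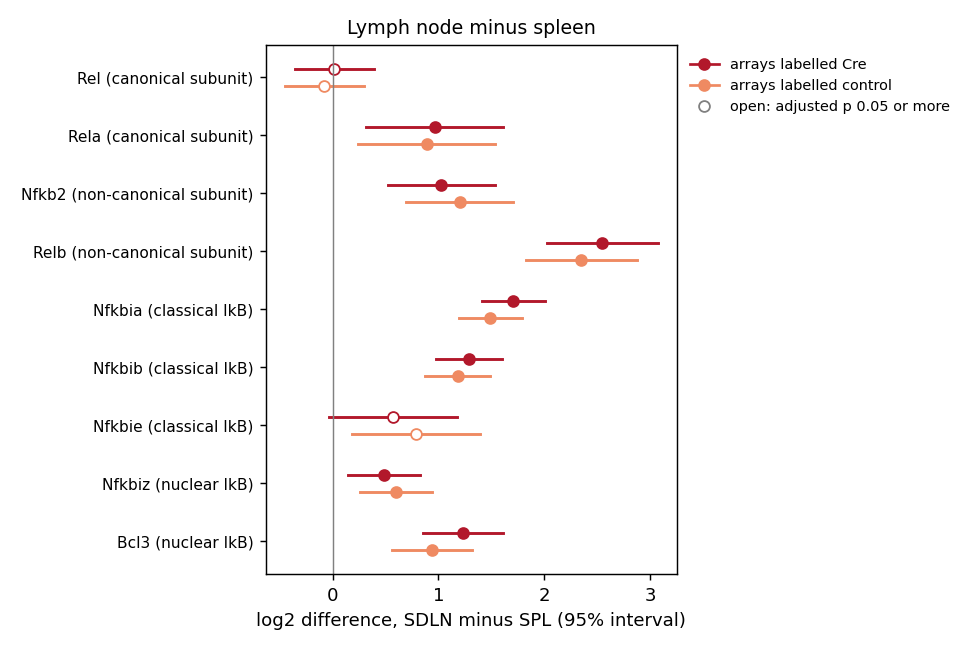
Log2 difference of each gene, SDLN minus SPL (horizontal axis), with 95% intervals, among Cre arrays (dark red, upper line of each pair) and control arrays (orange, lower line). Filled points have an adjusted p under 0.05. Relb stands at 2.55 and 2.35, and Rel stands near 0.

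The classical IkB proteins bind dimers and keep them in the cytoplasm. Nfkbia, which encodes IkB alpha, the quickly renewed inhibitor, had 6580, 7020 and 8032 in SDLN Cre arrays, against 2657, 1878 and 2135 in SPL Cre arrays. Nfkbia had 7050, 7851 and 7034 in SDLN control arrays, against 2774, 2566 and 2463 in SPL control arrays. All SDLN arrays were brighter than all SPL arrays by a wide margin. The fold was 3.27 (95% interval 2.65 to 4.02, adjusted p = 5.26e-07 in limma) among Cre arrays and 2.81 (2.28 to 3.46, adjusted p = 2.04e-06) among control arrays.

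Nfkbib, which encodes IkB beta, had 4215, 4670 and 4723 in SDLN Cre arrays, against 2094, 1663 and 1818 in SPL Cre arrays. Nfkbib had 4518, 4708 and 4683 in SDLN control arrays, against 2507, 1812 and 1883 in SPL control arrays. The groups were again fully apart, and the SDLN arrays were close to each other. The log2 difference was 1.29 (SE 0.14, adjusted p = 1.01e-05) among Cre arrays and 1.18 (SE 0.14, adjusted p = 2.50e-05) among control arrays.

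Nfkbie, which encodes IkB epsilon, had 450, 918 and 813 in SDLN Cre arrays, against 401, 462 and 551 in SPL Cre arrays. Nfkbie had 566, 885 and 945 in SDLN control arrays, against 339, 532 and 509 in SPL control arrays. The control groups were apart and the Cre groups overlapped through the SDLN replicate 1 array. The difference on the log2 scale was 0.57 (SE 0.28, adjusted p = 0.155) among Cre arrays and 0.79 (SE 0.28, adjusted p = 0.0529) among control arrays. With the replicate number as a block it passed the test under both labels (adjusted p = 0.00250 among Cre arrays and 1.98e-04 among control arrays), which brings the count of called genes to 8 of 9 under each label, where 41.0% and 36.0% of all genes passed. Without the replicate 1 arrays Nfkbie also passed, with a log2 difference of 0.78 among Cre arrays and 0.81 among control arrays (adjusted p = 1.64e-04 and 1.14e-04). Leaving out the SDLN Cre replicate 1 array alone had the same effect under both labels (adjusted p = 0.0183 among Cre arrays and 0.0179 among control arrays), and so did leaving out SDLN control replicate 1 (0.0177) or SDLN Cre replicate 2 (0.0459) for the control arrays.

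The nuclear IkB proteins act on dimers at DNA. Bcl3, which binds p50 and p52 homodimers, had 372, 447 and 372 in SDLN Cre arrays, against 207, 156 and 148 in SPL Cre arrays. Bcl3 had 307, 410 and 434 in SDLN control arrays, against 191, 187 and 218 in SPL control arrays. The tissues did not overlap. The fold was 2.35 (95% interval 1.81 to 3.05, adjusted p = 9.00e-05 in limma) among Cre arrays and 1.92 (1.48 to 2.49, adjusted p = 9.27e-04) among control arrays. Without the replicate 2 arrays the adjusted p among control arrays was 0.0518.

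Nfkbiz, which encodes IkB zeta, a coactivator of a second wave of NF-kB target genes, had 582, 676 and 734 in SDLN Cre arrays, against 438, 535 and 446 in SPL Cre arrays. Nfkbiz had 646, 744 and 786 in SDLN control arrays, against 436, 454 and 552 in SPL control arrays. The tissues did not overlap, and the change was the smallest of the 7 called genes. The log2 difference was 0.49 (SE 0.16, adjusted p = 0.0325) among Cre arrays and 0.60 (SE 0.16, adjusted p = 0.0114) among control arrays. The call among Cre arrays was lost when SDLN Cre replicate 2 or 3 or SPL Cre replicate 1 or 3 was left out (adjusted p between 0.0782 and 0.120), and the call among control arrays when SDLN control replicate 3 was left out (0.0503). Without all replicate 2 arrays the adjusted p was 0.172 among Cre arrays and 0.207 among control arrays, and without all replicate 3 arrays it was 0.353 and 0.113. Median centring also ended the call among Cre arrays (0.0970).

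Counted by separation alone, SDLN lay fully above SPL for 6 of 9 genes among Cre arrays (22.4% of all genes) and for 8 of 9 among control arrays (19.0%). The order of the 4 group means was SDLN control, SDLN Cre, SPL control and SPL Cre for 6 genes, among them Relb and Nfkb2. Within a tissue, the neighbouring Cre and control means had no adjusted p under 0.05 for any of the 9, with or without the block. Of the 4 genes with a motif match in the printed windows, Nfkb2 and Nfkbia passed the test between tissues. Nfkbie missed it without the block, and Rel did not pass it in any setting. Bcl3, Nfkbib and Rela passed it with no match in the window.

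Some markers of other cell types differed between tissues as well. Of all genes, 13.1% were higher and 15.2% lower in SDLN among Cre arrays, and 12.9% and 13.2% among control arrays. Of 6 measured T cell markers, 4 were higher and 2 lower in SDLN among Cre arrays, and 4 were higher and 1 lower among control arrays, with Cd5 lower under both labels (-0.67 and -0.91 on the log2 scale). They had summed intensities of 692 to 1648 in SDLN Cre arrays and 720 to 858 in SPL Cre arrays, and of 826 to 1319 in SDLN control arrays and 758 to 825 in SPL control arrays. Macrophage and monocyte markers summed to 438 to 633 in SDLN Cre arrays and 2222 to 3952 in SPL Cre arrays, and to 433 to 569 in SDLN control arrays and 2189 to 3872 in SPL control arrays. Of the 7 measured, 3 were lower among Cre arrays and 2 among control arrays, and Lyz2 (-3.76 and -3.59) and Cd14 (-3.71 and -3.86) had the large differences. Adgre1, Fcgr1 and Mertk lay below the array medians in all 4 groups, so the sums do not show that macrophages as a type differed. B cell markers summed to 272 to 334 in SDLN Cre arrays and 447 to 504 in SPL Cre arrays, and to 243 to 326 in SDLN control arrays and 389 to 458 in SPL control arrays. Of the 7 measured, 1 passed the test downwards and 0 upwards under each label. That gene, Ms4a1, differed by -2.53 among Cre arrays and -2.20 among control arrays. It had 32.7 to 40.5 in SDLN Cre, 187 to 251 in SPL Cre, 32.1 to 39.3 in SDLN control and 125 to 207 in SPL control arrays. Cd79a, Pax5, Cr2, Fcer2a and Ebf1 lay at or below the array medians everywhere. Immediate early and dissociation genes were lower in SDLN for 5 of 13 under each label and higher for 0. With the block 8 of 13 passed in either direction among Cre arrays and 9 among control arrays, where 41.0% and 36.0% of all genes did. The part of these genes in the differences of the NF-kB genes was not tested.

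The rest of the pathway was read by role, from lists drawn up for this purpose. The list counts stand beside 13.1% of all genes that passed upwards and 15.2% downwards among Cre arrays, and 12.9% and 13.2% among control arrays. The non-canonical kinase axis holds NIK and the TRAF and cIAP proteins that keep it low in resting cells. Of its 4 measured genes, 4 passed the test upwards in SDLN among Cre arrays and 3 among control arrays, with median log2 differences of 1.32 and 1.51. Birc2, which encodes cIAP1, had 1952, 2871 and 2610 in SDLN Cre arrays, against 273, 293 and 340 in SPL Cre arrays, and its log2 difference was 3.02 among Cre arrays and 3.12 among control arrays. Birc3, which encodes cIAP2, differed by 1.41 and 1.44, and Traf2, an adaptor of the same complex, by 1.22 and 1.58. Map3k14, which encodes NIK, had 811, 1301 and 924 in SDLN Cre arrays, against 648, 495 and 634 in SPL Cre arrays, with a log2 difference of 0.75 (limma adjusted p = 0.0271). Among control arrays Map3k14 had 713, 1044 and 1343 in SDLN, against 894, 738 and 702 in SPL, and the difference of 0.37 did not pass the test (limma adjusted p = 0.327). The Cre value of Map3k14 minus the control value was 0.38 (SE 0.33), which did not pass the test of the difference itself.

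Among 18 canonical kinases and adaptors, 4 passed upwards and 2 downwards in SDLN among Cre arrays, and 5 and 2 among control arrays, with medians of 0.09 and 0.19. With the replicate number as a block 10 of the 18 passed in either direction among Cre arrays and 11 among control arrays. Of all genes, 41.0% and 36.0% did so. Ikbkb, which encodes the kinase IKK beta, differed by 1.56 among Cre arrays and 1.66 among control arrays, Traf5 by 1.65 and 1.86, and Traf1 by 1.30 and 1.14. Myd88, the adaptor of most Toll-like receptors, differed by -1.68 and -1.48. Of 9 receptor genes, 4 passed upwards and 3 downwards among Cre arrays, and 4 and 2 among control arrays. Tnfrsf11a, which encodes RANK, was higher by 2.50 and 2.48 on the log2 scale, and Tnfrsf1b, which encodes TNF receptor 2, by 1.78 and 1.79. Tnfrsf1a, which encodes TNF receptor 1, differed by -2.09 and -2.13, and Tlr3, the receptor for double-stranded RNA, by -4.69 and -4.57. Tlr3 was also counted among the cDC1 markers above.

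Of 11 brakes on the pathway, 3 passed upwards and 2 downwards among Cre arrays, and 2 and 1 among control arrays. With the block 6 passed in either direction among Cre arrays and 5 among control arrays, where 41.0% and 36.0% of all genes did. Tnip1 differed by 1.95 among Cre arrays and 1.98 among control arrays, and Tnfaip3, which encodes the deubiquitinase A20, by 1.18 and 1.42. None of the 5 genes of the ubiquitin ligase that marks IkB passed the test under either label without the block (with it, 1 among Cre arrays and 3 among control arrays), and neither did Nfkbid and Nfkbil1, the 2 other IkB-related genes measured. Of 26 known NF-kB target genes, 15 passed upwards and 9 downwards among Cre arrays, and 14 and 8 among control arrays, with medians of 1.30 and 1.11. Of these targets, Ccr7, Ccl22 and Marcksl1 were also counted among the markers of migratory dendritic cells above. Il15, a cytokine that sustains memory CD8 T cells, differed by 3.29 and 3.51, and the chemokine gene Ccl5 by 3.27 and 2.94. Il1b, which encodes interleukin 1 beta, differed by -3.84 and -4.06, so the targets did not move one way.

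**Figure D3:**
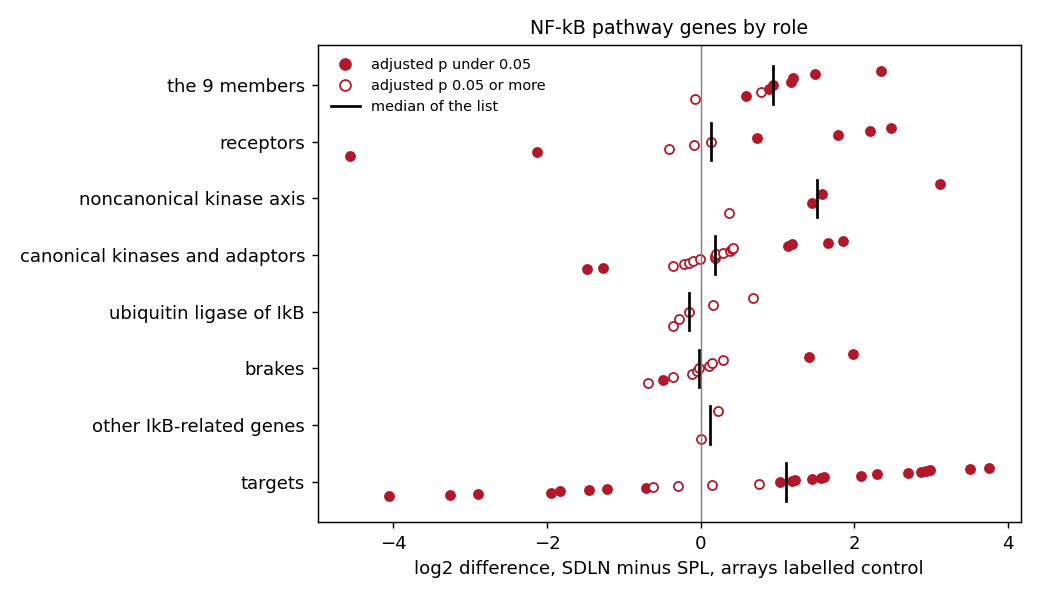
Log2 difference, SDLN minus SPL, among control arrays (horizontal axis), for the 9 genes and for 7 lists of pathway genes by role. Filled points have an adjusted p under 0.05, open points do not, and black bars are medians. The median is 0.94 for the 9 genes, 1.51 for the non-canonical kinase axis and 0.19 for the canonical kinases and adaptors. The non-canonical kinase axis has 4 measured genes, and Map3k14, which encodes NIK, is an open point at 0.37. The difference between lists was not tested.

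Between genotype labels, no subunit or IkB gene passed the test in either tissue, and 0% of all genes did (limma, adjusted p under 0.05). At an unadjusted p under 0.05, 0 of the 9 genes stood out in SDLN, where 402 of all genes did (2.02%), and 0 in SPL, where 357 did (1.79%). With the replicate number as a block these counts were 1 of 9 (Nfkb2) in SDLN, where 6.82% of all genes did, and 1 of 9 (Relb) in SPL, where 4.44% did, and no adjusted p passed. The values per array for each gene are those given for the tissues, and Cre and control arrays overlapped for all 9 genes in both tissues. Of all genes, 2.01% had Cre arrays fully above and 2.71% fully below control arrays in SDLN, and 2.68% and 4.96% did in SPL.

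Among the subunits, Nfkb2 had a log2 difference, Cre minus control, of -0.36 (SE 0.24) in SDLN and -0.18 (SE 0.24) in SPL. The interval of its fold ran from 0.550 to 1.11 in SDLN and from 0.620 to 1.25 in SPL. In same-numbered pairs of arrays, the Cre to control ratio of Nfkb2 was 0.677, 0.874 and 0.807 in SDLN, below 1 in all 3, and 1.12, 0.699 and 0.869 in SPL.

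Relb had a log2 difference of -0.14 (SE 0.24) in SDLN and -0.34 (SE 0.24) in SPL. The interval of its fold ran from 0.631 to 1.31 in SDLN and from 0.550 to 1.14 in SPL. The Cre to control ratio of Relb was 0.823, 1.08 and 0.843 in SDLN, and 0.859, 0.652 and 0.885 in SPL, below 1 in all 3 pairs. The sign of Relb in SDLN turned without the Cre replicate 1 array, to 0.14.

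Rela differed by -0.08 (SE 0.30) in SDLN and by -0.15 (SE 0.30) in SPL, and its SDLN value was 0.30 without the Cre replicate 1 array. Rel differed by 0.05 (SE 0.17) in SDLN and by -0.04 (SE 0.17) in SPL. Nfkbia had the narrowest intervals, with a fold of 0.984 (95% interval 0.799 to 1.21) in SDLN and 0.847 (0.688 to 1.04) in SPL. The other 4 genes had log2 differences of between -0.17 and 0.06 in SDLN and between -0.24 and 0.05 in SPL. None of these differences had an adjusted p under 0.05 in limma, with or without the replicate number as a block.

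**Figure D4:**
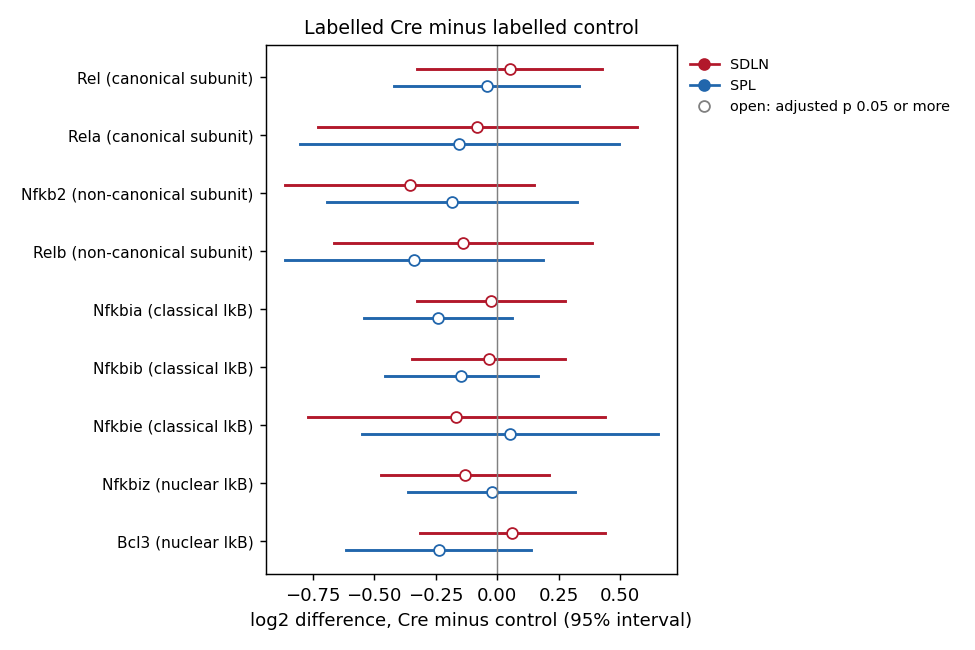
Log2 difference of each gene, Cre minus control (horizontal axis), with 95% intervals, in SDLN (red, upper line of each pair) and SPL (blue, lower line). All points are open, since no adjusted p was under 0.05. The intervals are from the fit without a block, and every one includes 0.

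Read as a group, 7 of 9 genes lay below 0 in SDLN and 8 of 9 in SPL, with median log2 differences of -0.08 and -0.15, where the medians over all genes were -0.01 in both. Cre was below control in all 3 same-numbered pairs for 2 genes in SDLN (Nfkb2 and Nfkbiz), where 14.7% of all genes did so, and for 5 genes in SPL (Rel, Rela, Relb, Nfkbia and Nfkbib), where 17.1% did. Averaged over the tissues, 0 of the 9 genes and 0% of all genes passed the test, and the Nfkb2 fold was 0.830 (95% interval 0.647 to 1.06) and the Relb fold 0.848 (0.655 to 1.10). At an unadjusted p under 0.05 that average held 0 of the 9 genes and 1.92% of all genes, and with the block 2 of 9 (Nfkb2 and Relb) and 5.34% of all genes. The difference between the genotype effects in SDLN and SPL passed the test for 0 of 9 genes and for 0% of all genes, with 0 of 9 and 1.64% at an unadjusted p under 0.05 (0 of 9 and 5.74% with the block). Every pathway list also had 0 genes called between genotype labels. Of 18 canonical kinases and adaptors, 18 lay below 0 in SDLN (median -0.12) and 9 in SPL (median -0.003). Of 26 targets, 15 lay below 0 in SDLN (median -0.03) and 22 in SPL (median -0.21). These genes share arrays and are not independent of each other. The share of all genes below 0 is not given here, so the counts below 0 are not set against it.

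The 4 replicate 1 arrays stood apart for these genes as well. Rel, Rela, Nfkbie and Nfkbiz were lowest on the replicate 1 array in all 4 groups, where 14.2% of all genes were. The median over the 9 genes of replicate 1 minus the mean of replicates 2 and 3, on the log2 scale, was -0.28 in SDLN Cre, -0.46 in SDLN control, -0.12 in SPL Cre and -0.30 in SPL control, where the median over all genes was between 0.05 and 0.07. Rela had values of -1.15, -0.59, -0.62 and -0.44 in the same order of groups. Nfkbia and Nfkbib went the other way in spleen, with Nfkbib at 0.27 in SPL Cre and 0.44 in SPL control, and at -0.16 in SDLN Cre and -0.06 in SDLN control. The immediate early list shifted by -0.41, -0.68, -0.54 and -0.45 on these arrays, and the summed T cell and macrophage markers were highest on them in every group. Whether these shifts bear on the NF-kB genes was not tested. Without these 4 arrays the count of called genes between tissues was 8 of 9 under each label, where 38.5% of all genes passed among Cre arrays and 34.6% among control arrays, and it stayed at 0 between genotype labels.

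**Figure D5:**
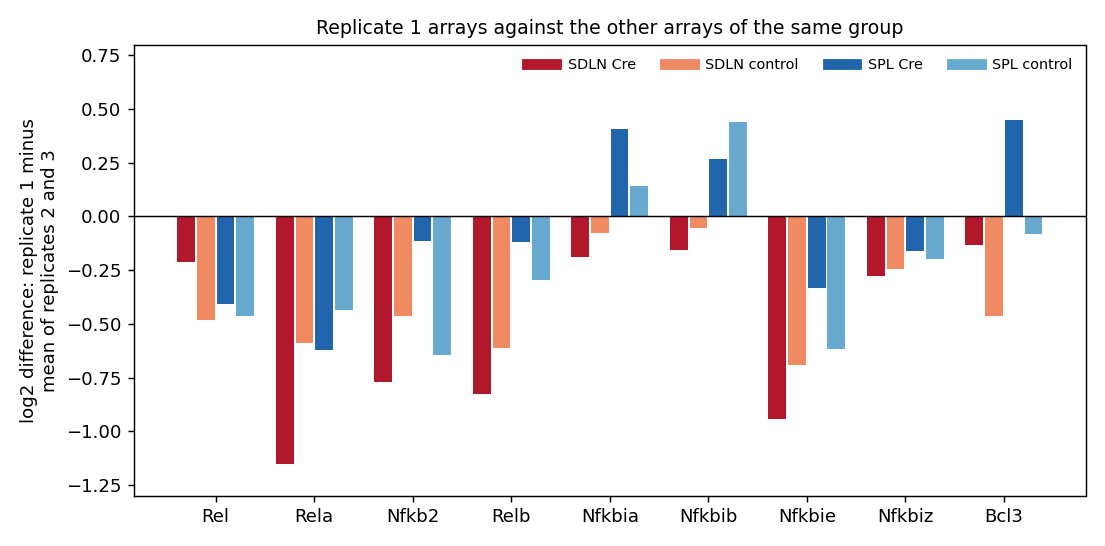
Replicate 1 minus the mean of replicates 2 and 3 within each group, on the log2 scale (vertical axis), for each of the 9 genes, with bars for SDLN Cre, SDLN control, SPL Cre and SPL control from left to right. Rela and Nfkbie are below 0 in all 4 groups, and Nfkbib is above 0 in both SPL groups.

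Over the 12 arrays, the genes most like each subunit were found by Pearson correlation among the 9968 genes above the median level, as a description. Since the arrays fall into 2 tissues, genes higher in SDLN tend to have a high value with Relb, Nfkb2 and Rela. This does not hold for Rel, which had r = 0.08 with Relb and -0.13 with Nfkbia. For Relb the most alike were Rftn1 (r = 0.999), Adcy6, Josd1, Mxd1 and Myo1g, and 1300 genes were above 0.9. For Nfkb2 they were Ctsz (0.988), Smarce1, Dvl1, Arid1b and Icam1, the adhesion molecule gene, with 889 genes above 0.9. For Rela they were Tap1 (0.987), a peptide transporter gene of antigen presentation, Cd2bp2, Polr2a, Lmbr1l and Nlrc5, with 602 above 0.9. For Rel they were Ppil4 (0.957), Dapp1, Prdm10, Stk24 and Larp4b, with only 47 above 0.9.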

How the data were processed

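The authors deposited linear intensities for each probe set on each array (8.23 to 20398). The submitters' processing notes name RMA and Affymetrix Expression Console and no version. Input RNA was scarce, per the labels' protocols. Log2 was taken of each value. Of 28853 probe sets, 21789 carried a single gene symbol in the platform annotation, 21698 of these matched RefSeq by Entrez number, and the brightest was kept for each gene, which left 19938 genes. Arrays have no read depth, so the number of arrays limits the precision.

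A linear model was fitted per gene in limma 3.58.1 under R 4.3.3, with 4 group means over 12 arrays and eBayes with a trend, with two-sided tests and Benjamini-Hochberg adjustment over all 19938 genes in each of 6 comparisons. Calls needed an adjusted p below 0.05. The fit was tested on simulated data with noise drawn independently for each array. That simulation held no shared shift of the replicate 1 arrays, so it does not bear on it. An exact permutation test of 3 arrays against 3 cannot go below 0.1 and was not used. Plots used matplotlib 3.10.9 (Python 3.11.15).

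The members, gene lists and tests were chosen with earlier results of these data known. All 10 listed genes were to be described, with Cd40 and Xcr1 as a check of the labels. Each pathway list was to be given by its counts and median, with up to 4 genes of smallest p, and the 5 genes most like Relb, Nfkb2, Rel and Rela over the arrays were named. Icam1 came from that last rule.

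Replicate numbers come from the labels. Deviations from the group means correlated between arrays with replicate number 1 at 0.573 to 0.729, with number 2 at 0.309 to 0.449, and with number 3 at 0.293 to 0.466. Between different numbers the values ran from -0.633 to 0.557, with a median of -0.449. Deviations within a group sum to 0, so positive values within a number bring negative ones between numbers. Only the values within number 1 all lay above the highest between different numbers. Whether numbers 2 and 3 pair arrays is not settled by these values. The reported values come from the fit without a block, and the fit with the number as a block is an alternative. The other alternatives were other scaling, filtering, weighting and probe set choices, and leaving out arrays.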

Additional observations from a re-analysis of the deposited data

How the results depend on the processing

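Under 22 other settings, no called value changed sign. The count of called genes between tissues was 7 of 9 under each label. With the replicate block it was 8 under each label, with array weights 8 and 8, with quantile normalization 8 and 8, and with median centring 5 among Cre arrays and 6 among control arrays. Leaving out 1 array or 1 replicate number gave 4 to 8 among Cre arrays and 4 to 8 among control arrays, with 4 among Cre arrays without replicate number 2 or 3 and 4 among control arrays without number 2. These settings use fewer arrays. The share of all genes called moved with the setting as well. It was 28.3% among Cre arrays and 26.1% among control arrays in the main fit, 41.0% and 36.0% with the block, and 38.5% and 34.6% without replicate number 1. For the other settings the share is not given here, so their counts are not set against all genes. Relb, Nfkbia and Nfkbib were called in all 22 settings under both labels, Nfkb2 in 20 among Cre arrays and 22 among control arrays, Bcl3 in 22 and 21, Rela in 16 and 12, Nfkbiz in 15 and 19, Nfkbie in 5 and 8, and Rel in 0 and 0. Between genotype labels, averaged over the tissues, and for the difference between tissues of the genotype effect, the count was 0 under every setting, the replicate block included. Apart from Nfkbie, the replicate block changed the call of none of the 9 genes in any of the 6 comparisons. Among uncalled differences between genotype labels the sign turned in 22 of 198 values in SDLN and in 13 of 198 in SPL. Quantile normalization and median centring moved the median of all genes by less than 0.1 on the log2 scale in every comparison. The number of arrays, 3 a group, limits the precision of every comparison.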
